A study of Mus musculus with 8 samples.

Results

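The genes described here encode collagen chains, laminin chains, matrix proteoglycans, fibronectin and tenascins, together with the ADAMTS and MMP proteases that cut them. They were taken by gene symbol, as every numbered collagen, laminin, Adamts and Mmp row of the count table plus 12 named proteoglycans and glycoproteins, and 82 of the 13607 symbols of the table matched. Acan and Lum are in the rule but have no row and were not analysed here. RNA was sequenced from cultured astrocytes of Yapf/f;Tazf/f mice on a C57BL/6J background, in which Cre can delete both floxed genes. Lentiviruses carried a doxycycline-inducible HER2CA (a constitutively active form of the receptor HER2), the activator rtTA, and CreERT2, the Cre form that becomes active with 4-hydroxytamoxifen (4OH-TAM). The 4 groups had 2 libraries each, named A and B. Controls were astrocytes that had not been transformed, grown without doxycycline. No source used here says whether they carried the constructs. HER2CA day 15 astrocytes had doxycycline for 15 days, and a further group, which the labels call a YAP/TAZ knockout, had doxycycline and 1 µM 4OH-TAM over those 15 days. Gliomaspheres were P1 suspension cultures with doxycycline, collected 3 weeks after the start. Labels give DMSO for HER2CA day 15 and gliomaspheres, while the treatment protocol calls cells without 4OH-TAM untreated. The description of the HER2CA day 15 samples calls them control astrocytes with HER2CA induced, and they are kept apart here from the control group, which had no doxycycline. All groups shared a base medium with 20 ng/ml EGF and 20 ng/ml bFGF. Whether libraries A and B came from separate cultures is not stated, so each p-value rests on differences among these libraries that may be technical only.

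The extracellular matrix of the brain differs from that of connective tissue. Its loose meshwork is built on hyaluronan, to which the hyalectans neurocan, brevican and versican bind by one end while tenascins bridge them at the other. Fibrillar collagens are sparse there outside the meninges and vessel walls, and laminins and network-forming collagen IV make up the basement membranes on which astrocyte endfeet rest. ADAMTS proteases cleave hyalectans and trim procollagens, and MMPs cleave collagens, laminins and fibronectin. Fibronectin and tenascin C are known for their rise in wounded tissue and in glioma.

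Total counts per library ranged from 15517708 to 28231426. Gliomasphere B stood apart: 36.1% of its counts fell on Rn45s, a ribosomal RNA row, against 0.984% to 2.92% in the other 7 libraries. Yap1 (transcript of the floxed Yap gene) did not differ between the libraries labelled 4OH-TAM and HER2CA day 15 past the threshold (log2 fold change 0.04, SE 0.0682, edgeR adjusted p = 0.569). Wwtr1, the gene of TAZ, was lower there (log2 fold change -0.73, SE 0.0687, edgeR adjusted p = 1.25e-07). Since Yap1 goes against the label, these libraries are called by their label throughout; counts over whole genes need not register a deletion of floxed exons. Erbb2, the mouse gene of HER2, had 30.9 and 30.05 CPM in HER2CA day 15 and 32.8 and 31.2 in controls (log2 fold change -0.07, SE 0.0860, edgeR adjusted p = 0.461), so this row does not show the induction that the label names, and it was lower in gliomaspheres than in controls (-0.51, SE 0.0927, edgeR adjusted p = 0.000193). Whether reads of the HER2CA construct could be counted in it is not stated; the name HER2CA is the label's throughout. Counts are compared as CPM (counts scaled to the library's total after TMM adjustment) and called with edgeR's quasi-likelihood test at an adjusted p of 0.05 over all genes of the table; the stricter rule also asks for a 2-fold difference. Astrocyte markers (19 of 20 measured) summed to between 11945 and 13709 CPM in controls, 4212 and 4501 in HER2CA day 15, 18399 and 18820 in libraries labelled 4OH-TAM and 17583 and 18753 in gliomaspheres; their part in the matrix values was not tested.

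HER2CA astrocytes at day 15 most often had the lowest level of a matrix transcript among the 4 groups, and libraries labelled 4OH-TAM most often the highest. By mean level, 47 of the 82 genes (57.3%) were lowest in HER2CA day 15, against 35.8% of all genes. In libraries labelled 4OH-TAM 33 genes (40.2%) had their highest mean, against 18.2% of all genes. However, 11 of the 82 genes reached 1 CPM in both libraries of that group only, which favours a highest mean there. The count was not redone without such genes. Gliomaspheres held the highest mean for 21 (25.6%, against 26.2% of all genes) and controls for 15 (18.3%, against 19.1%), both close to the share of all genes. HER2CA day 15 held it for 13 (15.9%), under the 36.5% of all genes. In these bulk cultures, fewer cells of a type and less RNA per cell cannot be told apart.

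**Figure D1:**
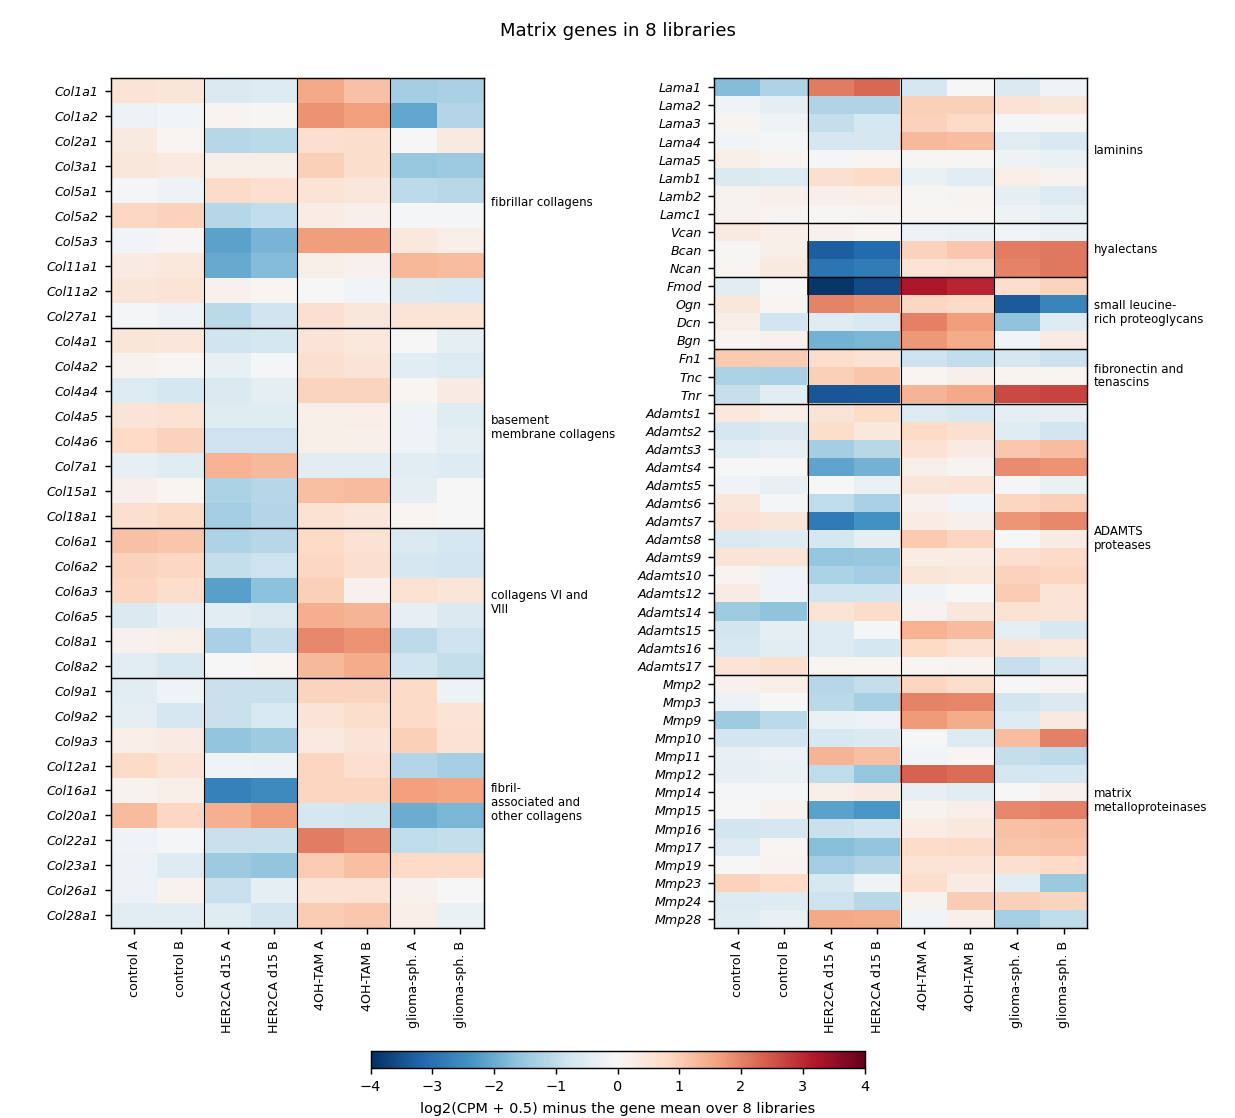
Level of 81 of the 82 genes in each of the 8 libraries, as log2(CPM + 0.5) minus the gene's mean over the libraries, with genes in rows by family and libraries in columns by group. Blue fills most rows of the HER2CA day 15 columns, where 47 of the 82 genes have their lowest mean; Tnc, Ogn, Lama1, Lamb1, Col7a1, Mmp11 and Mmp28 are red there.

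At day 15, 39 of the 82 genes were at least 2-fold lower in HER2CA astrocytes than in controls and 11 at least 2-fold higher, where 19.5% and 10.1% of all genes were called. The median log2 fold change was -1.02, against -0.02 over all genes. At the adjusted p alone, 51 were lower and 15 higher (38.4% and 37.3% of all genes), so the higher count was below the share of all genes and the lower count above it. Libraries labelled 4OH-TAM had 55 genes at least 2-fold above HER2CA day 15 and 9 below, against 23.9% and 9.3% of all genes, with a median of 1.88 against 0.01. The same libraries compared with controls had 33 genes at least 2-fold higher and 2 lower (12.1% and 2.95% of all genes; median 0.62 against 0.00). At the adjusted p alone, 61 genes were higher and 14 lower in libraries labelled 4OH-TAM than in HER2CA day 15 (40.8% and 39.7% of all genes), and 52 higher and 12 lower than in controls (31% and 28.2%). The comparisons share libraries, so these counts are not independent of each other.

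In gliomaspheres the split depended on the group compared. Against controls, where it was most even, 23 were at least 2-fold higher and 17 lower, with 11.4% and 8.58% of all genes called and a median of 0.03. Without gliomasphere B the counts were 22 and 17. Against HER2CA day 15 there were 36 higher and 14 lower (22.1% and 14.1% of all genes), or 35 and 14 without gliomasphere B. Against libraries labelled 4OH-TAM 9 were higher and 33 lower (7.17% and 11.4% of all genes), or 9 and 34 without that library. At the adjusted p alone the counts were 35 higher and 33 lower against controls (32.5% and 32% of all genes), 44 and 25 against HER2CA day 15 (38.4% and 40.4%), and 20 and 49 against libraries labelled 4OH-TAM (31.3% and 29.7%). Without scaling factors the last pair became 6 and 47, the counts against controls became 21 and 31, and those of libraries labelled 4OH-TAM against controls became 37 and 3.

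**Figure D2:**
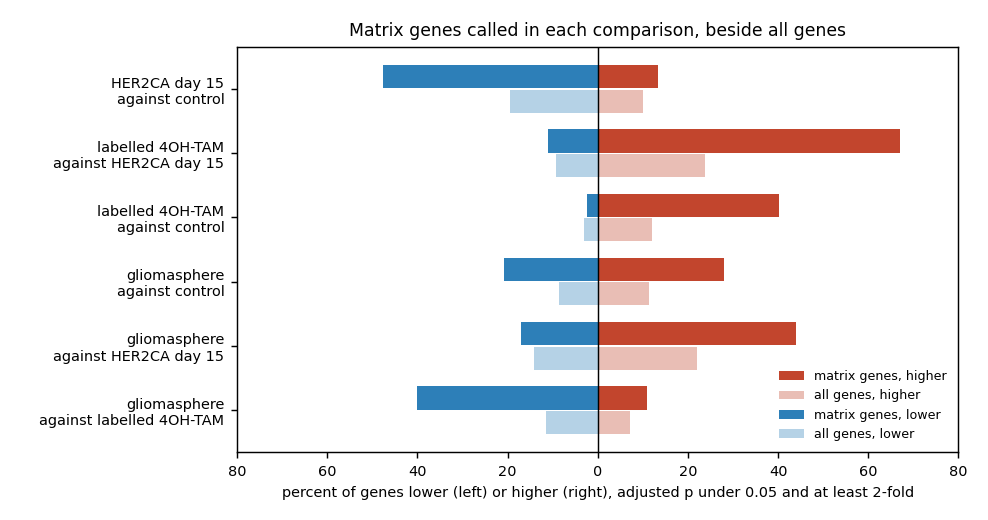
Percent of the 82 matrix genes (dark bars) and of all 13607 genes (pale bars) called higher (red, right) or lower (blue, left) in each comparison, at an adjusted p under 0.05 and at least 2-fold. The dark bar passes the pale one by most for genes higher in libraries labelled 4OH-TAM than in HER2CA day 15, where 55 of 82 are called, and the dark bar is a little shorter for genes lower in these libraries than in controls.

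The floor of the table bears on these counts. Each of its 13607 symbols reached 1 CPM in at least 2 libraries. Over all 13607 symbols 691 did so in a single group, a smaller share than the 12 of the 82 genes. Of these 12, 11 did so in libraries labelled 4OH-TAM and 1 in gliomaspheres. Such genes had to be high there to be in the table. Among the 57 genes with a mean of at least 5 CPM over the libraries, 31 were at least 2-fold lower and 7 higher in HER2CA day 15 than in controls (all genes at that level: 16.2% and 10.2%). Of those 57, 35 were higher and 8 lower in libraries labelled 4OH-TAM than in HER2CA day 15 (all genes: 16.9% and 9.98%). Against controls, 15 of the 57 (26.3%, against 33 or 40.2% of the 82) were higher in libraries labelled 4OH-TAM and 2 lower (all genes: 6.08% and 2.26%). In gliomaspheres 11 were higher and 12 lower than in controls, or 19.3% and 21.1% (all genes: 8.24% and 6.19%). Both shares stayed above those of all genes, but higher genes no longer outnumbered lower ones as they did over the 82. The counts were 23 and 9 for gliomaspheres against HER2CA day 15 (18.3% and 13.8%), and 7 and 20 against libraries labelled 4OH-TAM (5.68% and 6.53%).

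Fn1, Tnc and Ncan together made up 49.8% of the summed level of the 82 genes in controls, 62.1% in HER2CA day 15, 38.0% in libraries labelled 4OH-TAM and 53.2% in gliomaspheres. The 82 genes summed to 12124 ± 114 CPM in controls (SD, n = 2), 9220 ± 46.3 in HER2CA day 15, 9433 ± 177 in libraries labelled 4OH-TAM and 11101 ± 14.6 in gliomaspheres. Its make-up differed. Fn1 supplied 38.3% of the sum in controls, 38.3% in HER2CA day 15, 12.7% in libraries labelled 4OH-TAM and 11.9% in gliomaspheres. Tnc went from 3.47% in controls to 22.5% in HER2CA day 15, and Ncan from 8.10% to 1.26%; in gliomaspheres Ncan reached 31.5%. Per kilobase of exon, the 10 genes with the highest mean level over the groups were Fn1, Ncan, Tnc, Col4a5, Bcan, Col6a1, Lamb2, Col4a6, Mmp14 and Col5a2, in that order.

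**Figure D3:**
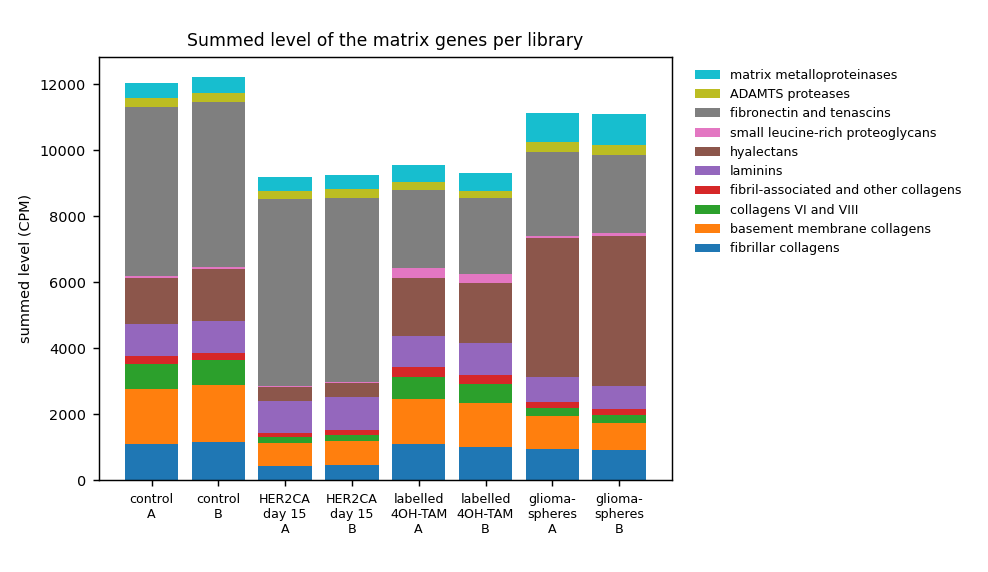
Summed CPM of the 82 genes in each library, stacked by family. The fibronectin and tenascin block is tallest in control and HER2CA day 15 libraries, and the hyalectan block is tallest in gliomaspheres, where it reaches a mean of 4394 CPM.

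Neurocan and brevican are secreted chondroitin sulfate proteoglycans largely restricted to the nervous system, and both were lowest in HER2CA day 15 and highest in gliomaspheres. Ncan (chr8:70093085-70120873, minus strand, GRCm38) had 889.8 and 1075 CPM in controls, 111 and 121 in HER2CA day 15, 1236 and 1277 in libraries labelled 4OH-TAM and 3329 and 3658 in gliomaspheres. No group overlapped another. Its log2 fold change was -3.09, SE 0.104 for HER2CA day 15 against controls (edgeR adjusted p = 2.71e-12) and 1.83, SE 0.0988 for gliomaspheres against controls (edgeR adjusted p = 5.49e-10). Bcan (chr3:87987531-88000230, minus strand) followed the same order, with 164 and 189.5 CPM in controls, 15.9 and 18.1 in HER2CA day 15, 305 and 336 in libraries labelled 4OH-TAM and 657 and 691 in gliomaspheres. Bcan fell by 3.38 (SE 0.101) on the log2 scale in HER2CA day 15. Both genes were also higher in libraries labelled 4OH-TAM than in HER2CA day 15, Bcan by 4.23 (SE 0.104) and Ncan by 3.44 (SE 0.106) on the log2 scale.

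Versican, the hyalectan of most soft tissues, varied much less. Vcan levels were 330.0 and 309 CPM in controls, 292 and 275 in HER2CA day 15, 222 and 213 in libraries labelled 4OH-TAM and 239 and 216 in gliomaspheres. Control and HER2CA day 15 values do not overlap but lie close, and that call (log2 fold change -0.17, SE 0.0752) was lost when control A or either HER2CA day 15 library was left out, or without scaling factors. Per kilobase of exon, Ncan stood at 5.42 and 6.99 times Vcan in controls, 0.763 and 0.881 times in HER2CA day 15, 11.2 and 12.1 times in libraries labelled 4OH-TAM, and 28.04 and 34.1 times in gliomaspheres. Versican was thus the more abundant of the pair, per length, in HER2CA day 15.

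Tenascin R, the tenascin of perineuronal nets, had the group order of neurocan and brevican, while tenascin C was highest where these 3 were lowest, in HER2CA day 15, and lowest in controls. Tnr (chr1:159523769-159931729, plus strand) had 2.84 and 4.12 CPM in controls, 0.0917 and 0.103 in HER2CA day 15, 15.7 and 17.6 in libraries labelled 4OH-TAM and 39.5 and 40.9 in gliomaspheres, a log2 fold change of -5.06, SE 0.379 at day 15 and 3.53, SE 0.148 in gliomaspheres against controls. Tnc (chr4:63959785-64047015, minus strand) was lowest in controls, at 425 and 417 CPM, and highest in HER2CA day 15, at 1977 and 2181. It stood between them in libraries labelled 4OH-TAM (1078 and 1166) and gliomaspheres (1094 and 1081), whose values overlap. Tnc rose by a log2 fold change of 2.31, SE 0.0837 in HER2CA day 15 (edgeR adjusted p = 5.04e-12). Fibronectin was highest in controls, with Fn1 at 4690.1 and 4589 CPM, and 3687 and 3383 in HER2CA day 15. It was lower in libraries labelled 4OH-TAM (1272 and 1132) and gliomaspheres (1404 and 1242), which overlap one another. Fn1 fell by 1.95 (SE 0.0959) on the log2 scale between controls and libraries labelled 4OH-TAM (edgeR adjusted p = 6.03e-10). Exons of Tnc, Tnr and Fn1 overlap another gene on the opposite strand, and the strand setting of the counting is not stated.

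Oligodendrocyte lineage cells are a known source of tenascin R and brevican, and the summed level of markers of that lineage had the group order of both genes. The sum over 18 of 20 measured markers lay between 586 and 642 CPM in controls, 169 and 177 in HER2CA day 15, 1114 and 1167 in libraries labelled 4OH-TAM, and 3289 and 3612 in gliomaspheres. Of these markers, Omg and Cldn11 were at 0 counts in HER2CA day 15. Between controls and HER2CA day 15, 14 of the 18 fell and 1, Myrf, rose. Against controls 16 were higher and 2, Cspg4 and Mbp, lower in libraries labelled 4OH-TAM, and 14 were higher and the same 2 lower in gliomaspheres. Between gliomaspheres and libraries labelled 4OH-TAM 7 were higher and 7 lower, so single markers did not all keep the order of the sum. Their part in the hyalectan and Tnr values was not tested.

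Among the small leucine-rich proteoglycans, which coat collagen fibrils and set their spacing, fibromodulin showed the widest range. Fmod (chr1:134037254-134048277, plus strand) was at 0.412 and 0.621 CPM in HER2CA day 15, 9.52 and 13.1 in controls, 21.3 and 24.3 in gliomaspheres and 126 and 110.4 in libraries labelled 4OH-TAM. The groups do not overlap. Between HER2CA day 15 and libraries labelled 4OH-TAM it rose 220.2-fold (edgeR adjusted p = 2.26e-13). Biglycan, a fibril-binding proteoglycan that also signals to innate immune receptors, had the same low and high groups. Bgn was at 49.4 and 51.5 CPM in controls, 11.96 and 12.4 in HER2CA day 15, 152 and 127 in libraries labelled 4OH-TAM and 42.3 and 56.6 in gliomaspheres, the last overlapping controls. Decorin binds collagen and TGF-beta; Dcn stood at 7.70 and 6.01 CPM in libraries labelled 4OH-TAM and at 1.92 and 0.700 in controls, 0.962 and 0.828 in HER2CA day 15 and 0.168 and 0.911 in gliomaspheres. Both Dcn values of libraries labelled 4OH-TAM lie above the 6 others, which overlap one another. Only in that 4OH-TAM group did both libraries reach 1 CPM of Dcn, so its place in the table depended on its level there. Osteoglycin, a relative with its own tissue range, had its low and high groups elsewhere. Ogn was highest in HER2CA day 15, at 26.9 and 24.1 CPM, with 8.99 and 6.80 in controls, 11.6 and 11.2 in libraries labelled 4OH-TAM and 0.168 and 0.607 in gliomaspheres. Ogn fell by 6.39 (SE 0.287) on the log2 scale between HER2CA day 15 and gliomaspheres.

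**Figure D4:**
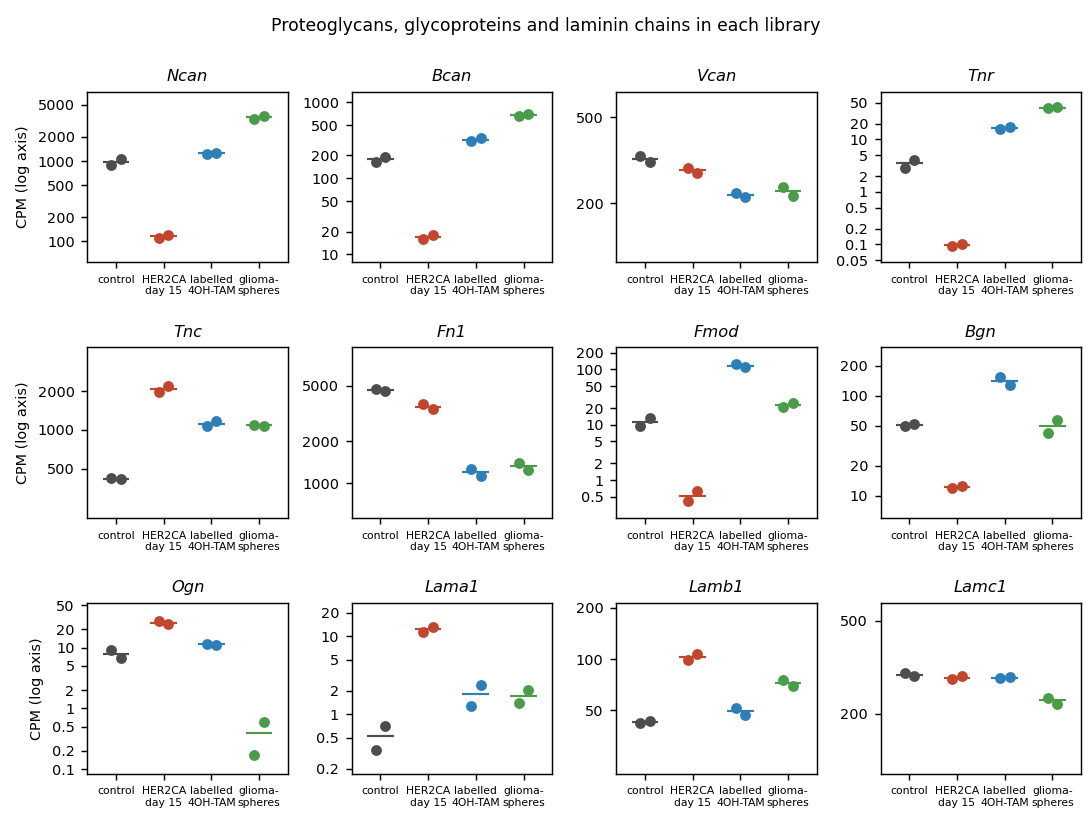
CPM on log axes for 12 proteoglycan, glycoprotein and laminin genes; points are libraries, bars are group means of 2 libraries, and each panel has its own range. Ncan, Bcan, Tnr, Fmod and Bgn are lowest in HER2CA day 15, Tnc, Ogn, Lama1 and Lamb1 are highest there, and Vcan and Lamc1 vary little.

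Among hyalectans, small leucine-rich proteoglycans, fibronectin and tenascins, 6 genes had the widest differences in each direction between HER2CA day 15 and controls. The promoter windows shown are those of Fmod, Tnr, Bcan and Ncan, lowest in HER2CA day 15, and of Tnc and Ogn, highest there. Each runs from 250 bases before to 50 bases after the RefSeq start on GRCm38.p6, 5′ to 3′ on the gene's own strand. Capitals mark matches, on either strand, to one of 4 strings: GGAATG (the TEAD site through which YAP and TAZ act), TGANTCA (AP-1), ACAAAG (SOX) and CCAAT (the CCAAT box); none of these strings contains another. The windows are chr1:134037004-134037303 (Fmod), chr1:159523519-159523818 (Tnr), chr3:88000307-88000606 (Bcan), chr8:70120795-70121094 (Ncan), chr4:64046966-64047265 (Tnc, the first of its 2 windows) and chr13:49607765-49608064 (Ogn).
Fmod: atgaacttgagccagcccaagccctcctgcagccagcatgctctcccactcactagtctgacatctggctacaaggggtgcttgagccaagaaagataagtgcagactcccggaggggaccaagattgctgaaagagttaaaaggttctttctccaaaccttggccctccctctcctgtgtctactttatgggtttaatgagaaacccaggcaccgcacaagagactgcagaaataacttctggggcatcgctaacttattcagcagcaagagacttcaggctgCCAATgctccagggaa
Tnr: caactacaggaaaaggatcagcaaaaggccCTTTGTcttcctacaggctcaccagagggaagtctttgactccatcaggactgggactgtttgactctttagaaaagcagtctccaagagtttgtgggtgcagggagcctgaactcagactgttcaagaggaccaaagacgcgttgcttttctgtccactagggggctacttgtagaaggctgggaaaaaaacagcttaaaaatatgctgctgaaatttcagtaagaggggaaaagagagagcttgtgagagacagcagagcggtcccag
Bcan: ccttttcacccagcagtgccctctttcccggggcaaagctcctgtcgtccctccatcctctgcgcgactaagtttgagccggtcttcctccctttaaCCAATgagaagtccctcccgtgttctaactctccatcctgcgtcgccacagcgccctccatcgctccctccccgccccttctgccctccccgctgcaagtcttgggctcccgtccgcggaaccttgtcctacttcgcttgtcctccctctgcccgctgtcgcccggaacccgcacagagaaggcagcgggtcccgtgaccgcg
Ncan: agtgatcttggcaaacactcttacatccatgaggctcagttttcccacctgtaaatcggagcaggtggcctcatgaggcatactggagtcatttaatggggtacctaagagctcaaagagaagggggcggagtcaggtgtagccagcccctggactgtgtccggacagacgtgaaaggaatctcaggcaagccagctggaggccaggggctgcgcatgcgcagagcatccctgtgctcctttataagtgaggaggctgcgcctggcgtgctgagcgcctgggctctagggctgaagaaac
Tnc: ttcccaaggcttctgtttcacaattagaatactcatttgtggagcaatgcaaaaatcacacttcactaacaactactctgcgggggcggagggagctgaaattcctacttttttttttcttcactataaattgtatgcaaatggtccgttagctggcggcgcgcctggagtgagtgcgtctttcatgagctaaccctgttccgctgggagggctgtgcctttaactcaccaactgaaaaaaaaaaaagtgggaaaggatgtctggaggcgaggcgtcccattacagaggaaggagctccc
Ogn: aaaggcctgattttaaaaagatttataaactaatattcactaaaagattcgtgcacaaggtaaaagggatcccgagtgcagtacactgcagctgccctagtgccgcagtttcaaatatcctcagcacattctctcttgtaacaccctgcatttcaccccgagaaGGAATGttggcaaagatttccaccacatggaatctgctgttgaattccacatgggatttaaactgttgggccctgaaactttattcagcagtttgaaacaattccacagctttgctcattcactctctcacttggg
The Fmod window holds a CCAAT string 34 bases after the start, that of Tnr a SOX string on the reverse strand 220 bases before it, that of Bcan a CCAAT string 153 bases before it and that of Ogn a TEAD string 86 bases before it. The Ncan and Tnc windows hold none of the 4, which says only that these letters are not in these stretches. RefSeq windows were found for 55 of the 82 genes, 61 windows in all. GGAATG occurred in 9.84% of them and in 14.7% of the 32851 windows of the mouse table. The shares were 6.56% and 7.81% for TGANTCA, 11.5% and 18.7% for ACAAAG, and 26.2% and 37.4% for CCAAT. Each string was thus somewhat rarer in the windows of the matrix genes than over the whole table; the difference was not tested.

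Fibrillar collagens form the load-bearing fibres of connective tissue. Of 10 measured chains 8 were lower in HER2CA day 15 than in controls and 1, Col5a1, was higher (38.4% and 37.3% of all genes). In libraries labelled 4OH-TAM 8 were higher and 1 lower than in HER2CA day 15 (40.8% and 39.7% of all genes). Against controls, gliomaspheres had 3 higher, near the 32.5% of all genes, and 6 lower (32% of all genes). Col1a1 and Col1a2 encode the chains of type I collagen. Col1a1 was at 41.8 and 39.96 CPM in controls, 19.2 and 19.9 in HER2CA day 15, 83.4 and 65.5 in libraries labelled 4OH-TAM and 10.8 and 11.3 in gliomaspheres, and the groups do not overlap. Col1a2 was far lower, at 2.38 and 2.64, 3.12 and 3.001, 11.1 and 10.1 and 0.293 and 1.012 CPM in the same order. Per kilobase, Col1a1 stood between 11.6 and 69.5 times Col1a2 over the 8 libraries. Type III collagen accompanies type I, and Col3a1 was highest in libraries labelled 4OH-TAM (mean 158 ± 19.8 CPM, SD, n = 2) and lowest in gliomaspheres (31.3 ± 1.26); its small fall in HER2CA day 15 was lost without any one of the control or HER2CA day 15 libraries and in DESeq2.

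Type V and type XI chains, which nucleate fibrils, split. Col5a2 was the most abundant fibrillar chain per kilobase by the mean over the groups. It had 593 and 633 CPM in controls, 150.1 and 168 in HER2CA day 15, 407 and 378 in libraries labelled 4OH-TAM and 314 and 318 in gliomaspheres. It fell by 1.95 (SE 0.0810) on the log2 scale in HER2CA day 15. Col5a3 had 16.1 and 17.96 CPM in controls, 3.53 and 4.42 in HER2CA day 15, 56.3 and 55.9 in libraries labelled 4OH-TAM and 23.5 and 20.9 in gliomaspheres, a rise of 3.80 (SE 0.120) between the day 15 groups. Col5a1 went the other way at day 15, with 107 CPM in HER2CA day 15 against 58.4 in controls (group means; log2 fold change 0.87, SE 0.0752). Col11a1 was lowest in HER2CA day 15 at 49.96 and 59.95 CPM and highest in gliomaspheres at 509.5 and 473. Per kilobase it stood above Col5a2 in gliomaspheres, at 38.5 against 32.9 CPM (group means). Without scaling factors, its gain in gliomaspheres over controls was lost.

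Basement membrane collagens form sheets under epithelia, vessels and glial endfeet. Of the 8 measured genes 6 fell and 1 rose in HER2CA day 15 against controls (38.4% and 37.3% of all genes). In libraries labelled 4OH-TAM 7 rose and 1 fell against HER2CA day 15 (40.8% and 39.7% of all genes). Of these 7, Col4a4 reached 1 CPM in both libraries of that 4OH-TAM group only, which favours a higher call there. Gliomaspheres against controls had 6 lower and 1 higher (32% and 32.5% of all genes). Col7a1, the anchoring fibril collagen, was the one that rose in HER2CA day 15, to a mean of 11.6 ± 0.531 CPM (SD, n = 2) from 3.11 ± 0.267 in controls, a log2 fold change of 1.89, SE 0.144. Col4a5 and Col4a6, which share a chain trimer, were the most abundant of the family. Col4a5 had 682 and 725 CPM in controls, 342 and 341 in HER2CA day 15, 552 and 569 in libraries labelled 4OH-TAM and 417 and 335 in gliomaspheres. Col4a6 had 518 and 563 in controls, 166 and 169 in HER2CA day 15, 349 and 339.9 in libraries labelled 4OH-TAM and 271 and 230.2 in gliomaspheres. Both were highest in controls, and both fell at day 15, Col4a5 by 1.04 (SE 0.0919) and Col4a6 by 1.69 (SE 0.0851) on the log2 scale. Col18a1, the source of endostatin, fell to a mean of 46.4 ± 4.58 CPM from 186 ± 12.6 (SD, n = 2).

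Col4a1 and Col4a2 make the common collagen IV trimer and are transcribed away from each other from one short stretch on chromosome 8, but their levels moved by different amounts; the difference between the chains was not tested. Col4a1 had 194 and 190.0 CPM in controls, 79.7 and 84.2 in HER2CA day 15, 198 and 187 in libraries labelled 4OH-TAM and 135 and 107 in gliomaspheres. Col4a2 had 56.2 and 53.2 in controls, 41.2 and 48.9 in HER2CA day 15, 79.2 and 72.5 in libraries labelled 4OH-TAM and 38.1 and 34.4 in gliomaspheres. Per kilobase the ratio of Col4a1 to Col4a2 was 3.06 and 3.17 in controls, 1.71 and 1.53 in HER2CA day 15, 2.22 and 2.29 in libraries labelled 4OH-TAM, and 3.16 and 2.77 in gliomaspheres. At day 15 the log2 fold change of Col4a1 was -1.23, SE 0.0912 and that of Col4a2 -0.28, SE 0.0918; the second call was lost without control A, without HER2CA day 15 A and without scaling factors. Exons of the pair overlap on opposite strands, so their reads may not be fully separable. The Col4a1 window (chr8:11312777-11313076, minus strand, GRCm38.p6) is shown because it holds the shared start region; capitals mark the 78 bases that also lie in the Col4a2 window (chr8:11312555-11312854, plus strand).
Col4a1: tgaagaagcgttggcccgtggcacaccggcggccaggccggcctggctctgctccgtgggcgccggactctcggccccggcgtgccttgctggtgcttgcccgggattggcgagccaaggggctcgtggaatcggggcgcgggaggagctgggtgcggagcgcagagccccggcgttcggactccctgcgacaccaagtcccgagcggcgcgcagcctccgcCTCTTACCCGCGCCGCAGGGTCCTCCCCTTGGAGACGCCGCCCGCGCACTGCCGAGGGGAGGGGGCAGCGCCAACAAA

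Collagen VI forms beaded filaments around cells, and its chains Col6a1, Col6a2 and Col6a3 fell at day 15. Col6a1 had 524 and 506 CPM in controls, 99.1 and 107 in HER2CA day 15, 409 and 348 in libraries labelled 4OH-TAM and 157 and 146 in gliomaspheres (log2 fold change -2.32, SE 0.0882 at day 15, edgeR adjusted p = 7.35e-12). Col6a2 followed, from 234 and 222 CPM in controls to 63.3 and 70.2 in HER2CA day 15. Col6a3 was much lower throughout, with 5.34 and 4.78 CPM in controls, 0.229 and 0.552 in HER2CA day 15, 5.86 and 3.17 in libraries labelled 4OH-TAM and 4.48 and 4.05 in gliomaspheres. HER2CA day 15 lies below all other libraries for these 3 chains. Col8a1, a short-chain collagen of vessel walls, peaked in libraries labelled 4OH-TAM, at 24.6 and 22.9 CPM against 7.10 and 7.37 in controls, 2.20 and 2.97 in HER2CA day 15 and 2.77 and 3.24 in gliomaspheres. Col6a5 had 76 counts in libraries labelled 4OH-TAM against 1 in HER2CA day 15, a ratio of 73.9 with a 95% counting interval of 12.9 to 2957. It reached 1 CPM in that 4OH-TAM group only, so it had to be high there to be in the table.

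Of 10 fibril-associated and other collagens 7 were lower and 1 higher in HER2CA day 15 than in controls (38.4% and 37.3% of all genes). In libraries labelled 4OH-TAM 9 were higher and 1 lower than in HER2CA day 15 (40.8% and 39.7% of all genes). Of these 9, Col9a1, Col9a2 and Col28a1 reached 1 CPM in both libraries of that 4OH-TAM group only, which favours a higher call there. Col16a1, a fibril-associated chain, had 31.3 and 33.4 CPM in controls, 3.99 and 4.45 in HER2CA day 15, 52.1 and 51.9 in libraries labelled 4OH-TAM and 90.5 and 85.9 in gliomaspheres, with no overlap between groups. Its log2 fold change was 4.38, SE 0.101 for gliomaspheres against HER2CA day 15. Col22a1, a collagen of tissue junctions, had 27.5 and 24.6 CPM in libraries labelled 4OH-TAM against 5.72 and 6.10 in controls, 3.16 and 3.21 in HER2CA day 15 and 2.85 and 3.04 in gliomaspheres. Col20a1, whose exons like those of Col3a1 overlap another gene on the same strand, ran the other way: 40.01 and 29.5 CPM in controls, 44.1 and 53.3 in HER2CA day 15, 10.03 and 9.60 in libraries labelled 4OH-TAM and 3.77 and 4.25 in gliomaspheres. The excess in HER2CA day 15 over controls was lost without control B, without HER2CA day 15 B and without scaling factors, while between HER2CA day 15 and gliomaspheres Col20a1 fell by 3.63 (SE 0.175) on the log2 scale. Col9a1 was at 0 counts in HER2CA day 15 and 64 in libraries labelled 4OH-TAM, which makes it at least 20.7-fold higher there, taking 3 counts over the group as the floor. Only in libraries labelled 4OH-TAM did both libraries reach 1 CPM of Col9a1, so its place in the table depended on a high level there.

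Laminins are trimers of one alpha, one beta and one gamma chain and form the cell-binding layer of basement membranes. The chains most abundant in these cultures showed the smallest log2 fold changes of the family at day 15. Lamc1, the common gamma chain, had 297 and 289.7 CPM in controls, 280.4 and 290.1 in HER2CA day 15, 284 and 286 in libraries labelled 4OH-TAM and 234 and 221 in gliomaspheres. Lamb2, a beta chain, had 366 and 381, 381 and 399, 343 and 361 and 252 and 226 CPM in the same order. Lama5, an alpha chain of adult basement membranes, had 223 and 199.7, 181 and 195, 191 and 192 and 163 and 155. None of the 3 passed the threshold between controls and either day 15 group, though Lama5 was called lower in HER2CA day 15 (log2 fold change -0.17, SE 0.0734) under 8 of the alternatives, DESeq2 and upper-quartile factors among them. Upper-quartile factors also put Lamc1 higher in libraries labelled 4OH-TAM than in HER2CA day 15, where TMM gives a log2 fold change of -0.00. All 3 were lower in gliomaspheres than in controls (log2 fold change -0.64, SE 0.0771 for Lamb2); the call of Lamc1 was lost without scaling factors.

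Other laminin chains were rearranged. Lama1, the alpha chain of the early embryo, rose from 0.346 and 0.700 CPM in controls to 11.3 and 13.3 in HER2CA day 15, the largest fold change of the 82 genes in that comparison among those with at least 5 CPM in the higher group (log2 fold change 4.56, SE 0.290, edgeR adjusted p = 1.63e-09). It was at 1.26 and 2.37 CPM in libraries labelled 4OH-TAM and 1.38 and 2.02 in gliomaspheres. Per kilobase it reached 0.0735 and 0.0803 of the level of Lama5 in HER2CA day 15. Lamb1, its usual beta partner, had 42.3 and 42.9 CPM in controls, 98.7 and 107 in HER2CA day 15, 51.9 and 46.9 in libraries labelled 4OH-TAM and 75.4 and 69.7 in gliomaspheres. Lama4, the alpha chain of vessel walls, was highest in libraries labelled 4OH-TAM, at 47.03 and 45.1 CPM against 17.2 and 18.2 in controls, 11.5 and 11.5 in HER2CA day 15 and 13.8 and 12.2 in gliomaspheres. Lama2, the alpha chain of muscle and astrocyte endfoot basement membranes, showed 5.68 and 4.98 CPM in controls, 2.57 and 2.52 in HER2CA day 15, 13.2 and 13.04 in libraries labelled 4OH-TAM and 9.97 and 9.004 in gliomaspheres. Lama3, an epithelial alpha chain, had 3.23 and 2.55, 1.28 and 1.59, 5.94 and 5.43 and 2.81 and 3.04 CPM in that order. Lama2 and Lama3 fell and Lama1 and Lamb1 rose in HER2CA day 15.

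Endothelial markers (7 of 18 measured) summed to 20.3 CPM in both controls, between 8.71 and 9.80 in HER2CA day 15, 56.3 and 56.5 in libraries labelled 4OH-TAM, and 37.6 and 43.4 in gliomaspheres. Mural markers (12 of 18 measured) summed to between 677 and 727 CPM in controls, 353 and 354 in HER2CA day 15, 386 and 423 in libraries labelled 4OH-TAM, and 296 and 301 in gliomaspheres. Single mural markers differed more than this sum between the day 15 groups. Of the 12, 9 were higher and 1, Acta2, lower in libraries labelled 4OH-TAM than in HER2CA day 15 (40.8% and 39.7% of all genes). Fibroblast and meningeal markers (9 of 20 measured) summed to between 293 and 316, 348 and 371, 426 and 460, and 328 and 353 CPM in these 4 groups. Of these 9 markers, 3 were higher and 3 lower in libraries labelled 4OH-TAM than in HER2CA day 15, so single markers did not all follow the sum. No measured marker of these 3 lists was at 0 counts in a whole group. Their part in the collagen and laminin values was not tested.

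ADAMTS proteases cut hyalectans and procollagens. Of the 15, 8 were lower and 3 higher in HER2CA day 15 than in controls (38.4% and 37.3% of all genes), and 10 were higher and 2 lower in gliomaspheres than in controls (32.5% and 32% of all genes). Adamts4, an enzyme known to cut brevican and aggrecan, averaged 14.6 ± 0.160 CPM in controls, 3.27 ± 0.406 in HER2CA day 15, 16.7 ± 1.12 in libraries labelled 4OH-TAM and 53.5 ± 2.75 in gliomaspheres (SD, n = 2). Adamts7 had 9.98 and 9.31 CPM in controls, 0.504 and 0.828 in HER2CA day 15, 8.27 and 7.57 in libraries labelled 4OH-TAM and 23.8 and 26.3 in gliomaspheres, a rise of 5.17 (SE 0.191) from HER2CA day 15 to gliomaspheres. Both are lowest in HER2CA day 15 and highest in gliomaspheres, as are Ncan, Bcan and Tnr, although Adamts7 in libraries labelled 4OH-TAM lies below controls and not above them. Exons of both overlap a gene on the opposite strand. Adamts14, which trims the amino end of procollagens, had 8.68 and 7.62 CPM in controls and more in every other group: 35.4 and 40.3 in HER2CA day 15, 26.5 and 33.2 in libraries labelled 4OH-TAM and 36.8 and 35.5 in gliomaspheres, whose values lie within those of HER2CA day 15. Against controls its log2 fold changes were 2.22, SE 0.124 in HER2CA day 15, 1.87, SE 0.126 in libraries labelled 4OH-TAM and 2.15, SE 0.128 in gliomaspheres. Adamts1, a versican-cutting enzyme and the most abundant of the family by CPM, averaged 146 ± 11.4 in controls, 176 ± 19.3 in HER2CA day 15, 74.8 ± 3.61 in libraries labelled 4OH-TAM and 89.1 ± 1.51 in gliomaspheres (SD, n = 2).

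Of the 14 MMP genes 7 were lower and 4 higher in HER2CA day 15 than in controls, near the shares of all genes (38.4% and 37.3%), and 10 were higher and 3 lower in libraries labelled 4OH-TAM than in HER2CA day 15 (40.8% and 39.7%). Of these 10, Mmp9 reached 1 CPM in both libraries of that 4OH-TAM group only, which favours a higher call there. Mmp14, a membrane-bound collagenase, was the most abundant per kilobase by the mean over the groups. In gliomaspheres Mmp15 stood above it, at 2.09 and 1.99 times its level per kilobase. Mmp14 varied less than 2-fold over the libraries, with 225 and 228 CPM in controls, 278 and 303 in HER2CA day 15, 186 and 176 in libraries labelled 4OH-TAM and 238 and 266 in gliomaspheres. Mmp15 and Mmp16, also membrane-bound, peaked in gliomaspheres. Mmp15 averaged 464 ± 20.2 CPM there, 125 ± 8.45 in controls, 24.9 ± 2.21 in HER2CA day 15 and 136 ± 7.41 in libraries labelled 4OH-TAM (SD, n = 2), and Mmp16 had 40.1 and 42.2 CPM against 10.5 and 10.8 in controls, 9.26 and 9.83 in HER2CA day 15 and 21.6 and 23.8 in libraries labelled 4OH-TAM. Mmp11 and Mmp28, both activated inside the cell by furin, were highest in HER2CA day 15. Mmp11 averaged 43.4 ± 3.76 CPM there against 14.6 ± 0.358 in controls, and Mmp28 20.7 ± 0.232 against 5.22 ± 0.597 (SD, n = 2).

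Mmp12, the elastase of macrophages (its exons overlap Mmp1b on the opposite strand), and Mmp3, a stromelysin that activates other MMPs, peaked in libraries labelled 4OH-TAM. Mmp12 was at 23.4 and 21.04 CPM there, 3.15 and 3.38 in controls, 1.79 and 1.07 in HER2CA day 15 and 2.35 and 2.33 in gliomaspheres (log2 fold change 4.00, SE 0.182 between the day 15 groups, edgeR adjusted p = 3.83e-11). Mmp3 was at 39.7 and 38.8 CPM there, 8.06 and 9.64 in controls, 4.26 and 3.48 in HER2CA day 15 and 5.49 and 6.27 in gliomaspheres. Mmp9, a gelatinase of leukocytes and microglia among others, had 184 counts in libraries labelled 4OH-TAM and 3 in controls, a ratio of 59.1 with a 95% counting interval of 19.9 to 289. Its level reached 1 CPM in libraries labelled 4OH-TAM only, so it had to be high there to be in the table. Microglia and macrophage markers (19 of 20 measured, none at 0 counts in a group) were also highest in those libraries, at between 1240.1 and 1295 CPM against 282 and 313 in controls, 269 and 285 in HER2CA day 15, and 162 and 166 in gliomaspheres; 18 of the 19 rose and 1 fell between the day 15 groups. Their part in the Mmp12, Mmp9 and Mmp3 values was not tested. Mmp10, another stromelysin, was at 0 counts in controls and 64 in gliomaspheres, at least 31.8-fold higher by the floor of 3 counts over the group. It reached 1 CPM in gliomaspheres only, so it too had to be high in 1 group to be in the table.

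**Figure D5:**
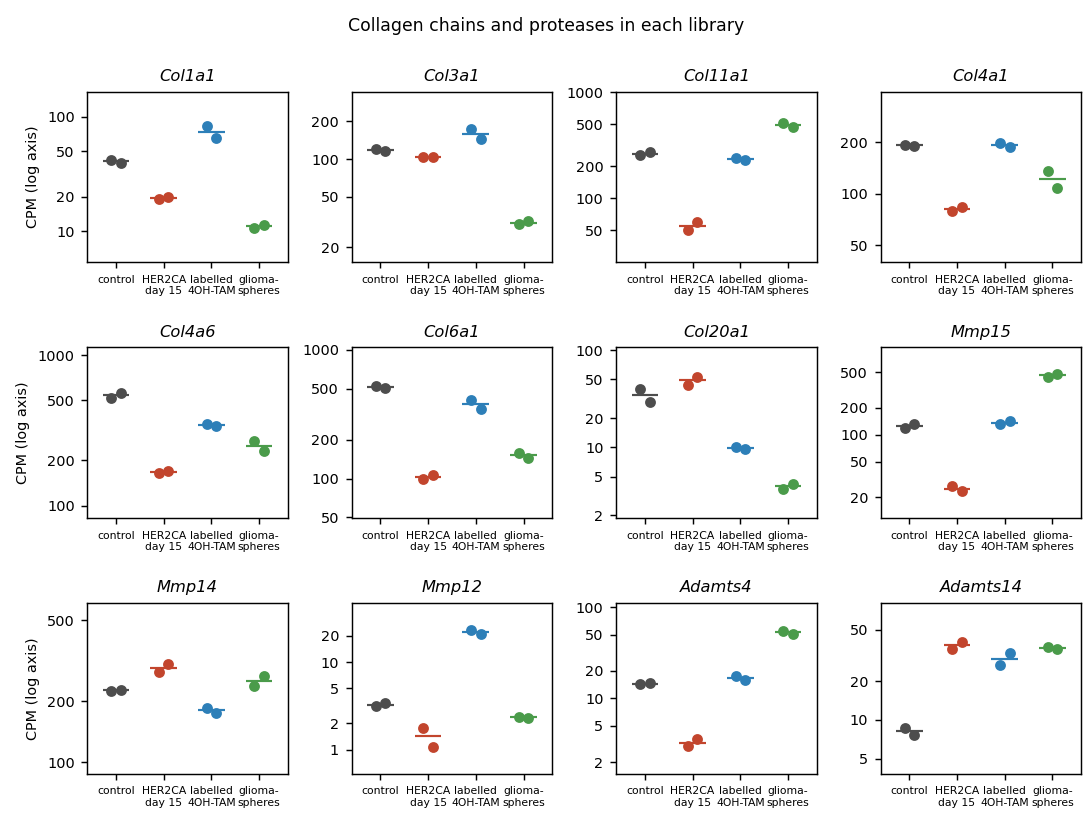
CPM on log axes for 12 collagen and protease genes; points are libraries, bars are group means of 2 libraries, and each panel has its own range. Col1a1, Col3a1 and Mmp12 peak in libraries labelled 4OH-TAM, Mmp15, Adamts4 and Col11a1 in gliomaspheres, and Adamts14 is lowest in controls.

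Genes that make, anchor or inhibit the matrix were read from lists that hold none of the 82; the shares of all genes given above for each comparison are the background here too. Of 11 protease inhibitors 9 fell and 1 rose in HER2CA day 15 against controls, and 10 rose and 1 fell in libraries labelled 4OH-TAM against HER2CA day 15. Timp3, the inhibitor that stays bound to matrix, was the one that rose, from 253 and 262 CPM in controls to 783 and 798, with 444 and 462 in libraries labelled 4OH-TAM and 328 and 363 in gliomaspheres. Timp4 had 5.80 and 6.38 CPM in controls, 0.183 and 0.138 in HER2CA day 15, 18.3 and 19.5 in libraries labelled 4OH-TAM and 80.2 and 83.1 in gliomaspheres, the order of Ncan and Tnr. A2m, a plasma-type inhibitor of many proteases, had the same order with group means of 13.4, 0.700, 79.7 and 316 CPM. Timp1 averaged 38.1, 19.9, 54.8 and 73.1 CPM, and Timp2 404, 257, 653 and 235.

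Collagen processing genes, 29 of 35 measured, had 19 lower and 4 higher in HER2CA day 15 than in controls, and 17 higher and 8 lower in libraries labelled 4OH-TAM than in HER2CA day 15. Serpinh1, the chaperone of procollagen, rose at day 15 (group means 526 and 729 CPM, log2 fold change 0.47, SE 0.0714) while most fibrillar chains fell. Loxl4, a lysyl oxidase-like crosslinking enzyme, rose by 2.70 (SE 0.150), and Loxl2, of the same family, fell by 2.39 (SE 0.108) on that scale. Lox itself averaged 3.67, 1.62, 4.13 and 1.07 CPM in controls, HER2CA day 15, libraries labelled 4OH-TAM and gliomaspheres. Pcolce, which speeds removal of the carboxyl propeptide, rose by 5.30 (SE 0.186) in libraries labelled 4OH-TAM over HER2CA day 15.

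Basement membrane partners, 26 of 27 measured, had 22 lower and 3 higher at day 15, and 21 higher and 3 lower in libraries labelled 4OH-TAM than in HER2CA day 15. Nidogen 1, which ties laminin to collagen IV, was also lowest in HER2CA day 15: Nid1 had 39.6 and 41.3 CPM in controls, 9.44 and 11.3 in HER2CA day 15, 101 and 105 in libraries labelled 4OH-TAM and 44.2 and 38.1 in gliomaspheres. Perlecan was lower in each other group than in controls, with Hspg2 means of 366 CPM in controls, 109 in HER2CA day 15, 218 in libraries labelled 4OH-TAM and 109 in gliomaspheres. The collagen receptor Ddr2 rose by 2.65 (SE 0.0982) at day 15 and its relative Ddr1 fell by 2.71 (SE 0.0939).

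On the hyaluronan side, 14 of 18 listed genes were measured, of which 8 fell and 4 rose at day 15. Has2, a hyaluronan synthase, averaged 20.7 CPM in controls and 6.41 in HER2CA day 15, and Cd44, a hyaluronan receptor, 400.0 and 192. Hapln4, a brain link protein that fastens hyalectans to hyaluronan, rose from 10.1 to 61.7 CPM while Ncan and Bcan fell. Hapln1, another link protein, had its highest group mean in gliomaspheres, at 2.08 CPM. Chondroitin sulfate synthesis genes (21 of 22 measured) had 12 lower and 5 higher at day 15, and 11 higher and 8 lower in gliomaspheres than in controls. Csgalnact1, which starts the chain, fell by 1.91 (SE 0.0884) on the log2 scale at day 15. Other proteoglycans, 20 of 23 measured, had 17 lower and 1 higher at day 15; Cspg4 fell by 2.65 (SE 0.0768). Elastic fibre and matricellular genes, 39 of 41 measured, had 29 lower and 6 higher at day 15 and 31 higher and 4 lower in libraries labelled 4OH-TAM than in HER2CA day 15. Sparcl1, a matricellular protein of astrocytes, fell by 2.82 (SE 0.0951), and Postn (periostin) rose by 2.43 (SE 0.212).

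TGF-beta signalling is a textbook inducer of collagen and fibronectin genes, and its 21 listed genes split at day 15, with 6 higher and 7 lower than in controls (37.3% and 38.4% of all genes). Among the 6 higher, Thsd4 rose by 6.57 and Inhba by 2.28 on the log2 scale. The 3 Tgfb ligands were among the lower genes in HER2CA day 15. Tgfb1 went from 37.2 and 35.4 to 9.85 and 11.2 CPM, and Tgfb2 from 155 and 152 to 74.7 and 79.3. Tgfb3 went from 49.3 and 49.8 to 14.8 and 17.8. All 3 were higher in libraries labelled 4OH-TAM than in HER2CA day 15, with group means of 19.9, 110.5 and 29.3 CPM, but below controls.

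Over the 8 libraries, the genes whose log2 levels were most like those of Fmod were Pm20d1 (Pearson r = 0.998), Lix1 (0.998), Chil1 (0.998), Col5a3 (0.997) and Cyp7b1 (0.996). For Col1a1 they were Adgre5 (0.994), Glb1l2 (0.993), Klhdc8a (0.992), Meg3 (0.992) and Fxyd1 (0.992). These values describe 4 groups of 2 libraries, share the libraries' depth and scaling, and were the highest of all genes in the table. Lix1, for example, had group means of 14.6 CPM in controls, 4.26 in HER2CA day 15, 50.1 in libraries labelled 4OH-TAM and 21.4 in gliomaspheres.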

How the data were processed

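PolyA RNA was sequenced from libraries of a stranded kit, per the labels' protocols and design text. The authors deposited one table of whole-number read counts per gene symbol, not normalised, as its values show. The submitters' processing notes name the builds GRCm38 and mm10 and the tools featureCounts, STAR 2.5.3a and FastQC, with no role or order. No source used here gives the annotation or the strand setting. Exons of 20 of the 82 genes overlap another gene on the opposite strand and 3 on the same strand (GENCODE M21, GRCm38, which holds 96.6% of the table's symbols), so their reads may be shared.

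Columns were matched to samples by title. Libraries of a group differed by more than sampling noise (chi-square per degree of freedom 4.05 to 723), so each counted as 1 replicate. The fit used edgeR 4.0.16 (R 4.3.3) on the counts: filterByExpr, which kept all 13607 genes, TMM factors, 1 mean per group over 8 libraries (4 residual degrees of freedom) and glmQLFTest, with p-values adjusted by Benjamini-Hochberg across the table and called at 0.05. The second rule adds a log2 fold change of 1. SE is the absolute log2 fold change over the square root of F. CPM use TMM-scaled library sizes; per-kilobase levels divide by the exon union. Group means have n = 2. With 0 counts in a group a fold is a bound against 3 counts over the group; with 1 to 3 counts the ratio and its 95% interval cover counting error only. The fit was tested on simulated data.

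Values per library are given for the 6 largest fold changes per comparison past the threshold with at least 5 CPM in the higher group, the 10 highest genes per kilobase, and the laminins, hyalectans, small leucine-rich proteoglycans, Col4a1, Col4a2, Fn1, Tnc and Tnr; 1 gene of the 82 enters the counts but is not reported here by name; other genes of the 82, their partners (from each list the 2 of lowest p per direction and comparison, and some fixed names) and markers come by count, range or group mean. The 82 genes, the lists and the alternatives were chosen with earlier results of these data known. Alternatives were other scaling factors or none, a 5 CPM filter or none, a fit to only the 2 groups in question, removal of Rn45s and Lars2, leaving out each library, a block for the letter A or B, and DESeq2 1.42.0.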

Additional observations from a re-analysis of the deposited data

How the results depend on the processing

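Of the 492 values (82 genes in 6 comparisons), 411 passed the threshold in the edgeR fit; over all alternatives 227 calls were lost, 41 were gained and 5 values past the threshold in one of the fits changed direction, while 6002 stayed on their side of the threshold; among these, 106 values past the threshold in neither fit changed sign. Of the lost calls 82 came with no scaling factors; the cause was not tested. Without scaling factors, members lower in libraries labelled 4OH-TAM than in controls fell from 12 to 3 at the adjusted p alone (higher 52 to 37), members higher in gliomaspheres than in controls from 35 to 21 (lower 33 to 31), and members higher in gliomaspheres than in libraries labelled 4OH-TAM from 20 to 6 (lower 49 to 47), and from 9 to 5 at 2-fold. The median of all genes then moved to -0.33, -0.30 and -0.38 in the gliomasphere comparisons with controls, HER2CA day 15 and libraries labelled 4OH-TAM, and upper-quartile factors moved it to -0.17 for HER2CA day 15 against controls and 0.22 between the day 15 groups. Those that changed direction were Lamc1 between the day 15 groups, at 0.21 under upper-quartile scaling, and, where no factors were used, Adamts9 in gliomaspheres against controls (-0.15), and Adamts14 (-0.11), Adamts1 (-0.15) and Col9a3 (-0.0052) in gliomaspheres against libraries labelled 4OH-TAM. A filter of 5 CPM in 2 libraries kept 65 members and gave 19 in place of 33 at least 2-fold higher in libraries labelled 4OH-TAM than in controls, and in gliomaspheres against controls 23 in place of 35 higher with 32 in place of 33 lower, and 13 in place of 23 higher with 16 in place of 17 lower at 2-fold, so that more were lower than higher; fewer genes were tested there, 65 of the 82. Leaving out each library in turn kept every count within 1.5 times, with 61 to 62 higher between the day 15 groups and 48 to 51 lower at day 15. Deviations of libraries with the same letter correlated between -0.0285 and 0.0745 across groups. These values show no pairing by letter but cannot exclude one, since every gene weighs the same in them, low counts included. With the letter as a block 61 members were higher and 14 lower between the day 15 groups, 15 and 51 at day 15 against controls, and 33 and 33 in gliomaspheres against controls. Depth limits Col6a5, Col28a1, Col9a1, Mmp9 and Mmp10, which have 3 or fewer counts in at least 1 group.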
